A study of Mus musculus with 95 samples.

Results

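The homeobox and Pax genes analysed here encode 57 transcription factors of development outside the Hox clusters, and their messenger RNA and chromatin were followed in mouse embryonic stem cells that lack members of the PCGF family. The genes were taken from a fixed list of names rather than by a cut on measured values, but the list was chosen with earlier results of these data known. It held 6 Dlx, 8 LIM homeobox (Lhx), 9 Nkx, 5 sine oculis homeobox (Six2 to Six6), 6 Irx, 2 Msx, 2 Pitx, 2 Emx, 2 Otx, 2 Barhl, 2 Gbx, 9 Pax and 2 engrailed (En) genes. All 57 were in the deposited table of 23377 genes. The series held 95 samples of the E14 embryonic stem cell line and its derivatives, 14 RNA-seq libraries and 81 ChIP-seq samples. The cells grew on a gelatin coat, and serum was supplemented with LIF plus blockers of the kinases GSK3β and MEK, as the protocols in the labels have it. RNA was measured in wild-type cells and in lines labelled Pcgf1-/-, Pcgf2/4-/-, Pcgf3/5-/-, Pcgf6-/-, Pcgf1/2/4-/- and Pcgf3/5/6-/-, with 2 libraries a line. Pcgf4 is the gene also called Bmi1. The knockout lines were Cas9-edited clones, and lines labelled for several genes came from further editing of clones edited in 1 gene, so a difference of a line from wild-type is a difference of that clone. Peak lists were also deposited for lines labelled Ezh1/2-/-, Ring1a/b-/- and Ring1a-/-_Ring1bfl (Ring1a deleted, Ring1b floxed, with an inducible Cre), and for cells with short hairpins against Mga, E2f6, Usf1 or Usf2 or a control hairpin (shCtr).

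Homeobox proteins bind DNA through the homeodomain, and Pax proteins through the paired domain, which some of them carry together with a homeodomain. In embryos they divide the neural tube, the placodes, the limbs and the organs into regions, and in embryonic stem cells most of their genes are silent and serve as textbook targets of Polycomb. Polycomb repressive complex 1 (PRC1) is built round RING1A or RING1B, which ubiquitinate histone H2A, and each complex holds a single PCGF protein: PCGF2 and PCGF4 sit in canonical complexes that read H3K27me3, and PCGF1, PCGF3/5 and PCGF6 sit in variant complexes. Polycomb repressive complex 2 (PRC2), which contains SUZ12 and EZH1 or EZH2, writes H3K27me3, while H3K4me3 marks promoters in general.

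Upstream sequences of 5 members are shown because they span the range of CpG content at the genes whose RNA or peaks the results turn on. Each is the 250 bases before the annotated start, written 5′ to 3′ on the gene's strand, taken from the RefSeq promoter table of build GRCm38.p6 and placed on NCBIM37 by exact match, with CpG dinucleotides in capitals. Otx2 at chr14:49287320-49287569 (minus strand) and Pax8 at chr2:24331120-24331369 (minus strand) each held 6 CpG. Pax6 at chr2:105508803-105509052 (plus strand) held 15, Irx4 at chr13:73397695-73397944 (plus strand) held 22 and Nkx6-2 at chr7:146768697-146768946 (minus strand) held 26.
Otx2: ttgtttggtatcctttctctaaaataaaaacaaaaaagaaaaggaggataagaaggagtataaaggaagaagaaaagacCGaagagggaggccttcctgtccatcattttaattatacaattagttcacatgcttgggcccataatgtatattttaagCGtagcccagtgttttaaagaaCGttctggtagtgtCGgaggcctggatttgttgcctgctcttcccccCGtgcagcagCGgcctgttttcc
Pax8: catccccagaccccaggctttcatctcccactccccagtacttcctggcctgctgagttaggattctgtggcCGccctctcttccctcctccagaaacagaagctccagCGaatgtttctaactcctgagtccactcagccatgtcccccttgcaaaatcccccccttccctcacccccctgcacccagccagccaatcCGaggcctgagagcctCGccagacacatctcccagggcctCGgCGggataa
Pax6: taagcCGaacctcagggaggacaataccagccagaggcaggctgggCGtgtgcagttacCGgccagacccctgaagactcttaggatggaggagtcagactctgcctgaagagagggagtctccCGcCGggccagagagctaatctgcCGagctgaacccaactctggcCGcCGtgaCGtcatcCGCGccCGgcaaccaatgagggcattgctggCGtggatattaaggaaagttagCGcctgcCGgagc
Irx4: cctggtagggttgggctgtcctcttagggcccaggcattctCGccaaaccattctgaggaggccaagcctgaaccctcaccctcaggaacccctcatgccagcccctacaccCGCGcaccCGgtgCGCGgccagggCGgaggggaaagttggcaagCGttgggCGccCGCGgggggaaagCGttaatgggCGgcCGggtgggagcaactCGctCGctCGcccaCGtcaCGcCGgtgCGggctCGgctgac
Nkx6-2: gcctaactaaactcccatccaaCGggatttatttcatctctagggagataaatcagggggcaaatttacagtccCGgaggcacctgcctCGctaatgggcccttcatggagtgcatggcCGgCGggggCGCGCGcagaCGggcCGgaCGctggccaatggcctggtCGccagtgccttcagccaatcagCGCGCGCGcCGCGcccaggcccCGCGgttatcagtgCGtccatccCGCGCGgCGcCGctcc
The wild-type RING1B peaks of the authors covered all 250 of these bases at Pax6, Irx4 and Nkx6-2, but only 38 at Otx2 and 26 at Pax8. Other members did not all follow that order. All 250 bases were covered at Lhx8 and Lhx9 (4 CpG each) and Pax2 (5), and 0 at Nkx1-2 (19), Six4 (15) and Six5 (13). The sequences lie before 1 start only, while Otx2 and Pax8 each have 7 annotated starts. Among the 43 members with an entry in that table, the 300-base promoters held a median of 19 CpG (range 4 to 42) and 62.3% G or C, against 7 CpG and 52.7% over all 32851 promoters of the table. The motif CACGTG, an E-box that reads the same on both strands, was present in 6 of the 43 (14%: Dlx2, Nkx1-2, Nkx2-2, Barhl2, Gbx2 and En1), against 7.15% of all promoters.

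Library totals ran from 2147968 to 7848161 counts, and levels below are given as CPM, counts scaled to library sizes adjusted by the trimmed mean of M values. The 3 counts taken as the floor of detection were worth 0.328 to 1.60 CPM in a library. The 2 wild-type libraries differed by less than the sampling noise (chi-square per degree of freedom 0.954, against 1.20 to 21.1 in the other lines) and count as 1 sample, so results are also given with the pair summed. Libraries labelled Pcgf1-/- held 4.01 CPM of Pcgf1 on average against 63.6 in wild-type, and Pcgf6 was at 0 in Pcgf6-/-. Pcgf6 was not lowered in the libraries labelled Pcgf3/5/6-/- (39.6 CPM against 35.3 in wild-type), and Pcgf2, Bmi1 and Pcgf3 messages also remained in the lines labelled for them. In Pcgf1/2/4-/- Bmi1 was at 16.9 CPM against 15.2, and Pcgf2 was above its wild-type level of 45.9. An edited allele can keep its RNA, so directions below belong to the libraries as labelled. Summed over 12 pluripotent cell markers, CPM lay between 2159 and 4201 in all libraries (2570 and 2588 in wild-type). Of these 12, the raised and lowered were 1 and 1 in Pcgf1-/- (13.9% and 18.4% of genes tested), 2 and 0 in Pcgf2/4-/- (8.1% and 13.5%) and 1 and 0 in Pcgf3/5-/- (11.1% and 10.4%). The numbers were 2 and 2 in Pcgf6-/- (27.8% and 18.6%), 6 and 1 in Pcgf1/2/4-/- (14.4% and 22.6%) and 2 and 5 in Pcgf3/5/6-/- (28% and 25.3%). The same shares of genes apply to the other marker lists. Summed trophoblast markers were at 1803 to 1838 CPM in Pcgf3/5/6-/- against 284 to 299 in wild-type, with 10 of 12 raised and 2 lowered, and primitive endoderm markers at 735 to 757 against 323 to 329, with 8 raised and 1 lowered among 10 tested. In Pcgf6-/- the same sums were 561 to 570 and 554 to 561, and in Pcgf1/2/4-/- 475 to 529 (7 raised and 2 lowered) and 478 to 498 (5 raised and 1 lowered). Neural markers summed to 587 to 614 in Pcgf1/2/4-/- and 381 to 395 in Pcgf3/5/6-/- against 337 to 339, with 1 and 6 raised among 8 tested, and with Sox3, Olig2 and Hes5 among the neural markers at 0 in wild-type. Mesendoderm markers summed to 24.7 to 33.5 CPM in Pcgf3/5/6-/- against 52.6 to 57.8 in wild-type, with 1 raised and 2 lowered among 4 tested. Fibroblast markers summed to 81.1 to 81.8 against 47.4 to 51.9, with 4 raised and 1 lowered among 6 tested. Whether the lines held mixtures of cell types, and whether these have a part in the results below, was not tested. In bulk RNA, fewer cells of a type and less RNA per cell cannot be told apart.

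On NCBIM37, the build of the gene models used here, the 57 genes lie on 14 chromosomes, and 35 have more than 1 annotated start. Of the genes described most below, Msx2 (ENSMUSG00000021469.7) lies at chr13:53562250-53568443, Gbx2 (ENSMUSG00000034486.7) at chr1:91824537-91829865, Otx2 (ENSMUSG00000021848.9) at chr14:49277354-49287319 and Pax8 (ENSMUSG00000026976.8) at chr2:24276071-24331119, all on the minus strand, and Dlx3 (ENSMUSG00000001510.7) at chr11:94981403-94986610 on the plus strand. An exon is shared with a gene on the other strand at 15 members, and reads of such pairs cannot be told apart unless counting used the strand, which is not given in the sources used here.

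Most members were silent or nearly so in wild-type cells. Of the 57 genes, 32 had no count in either wild-type library, 46 had a mean under 1 CPM and 5 reached 5 CPM: Gbx2, Six4, Lhx6, Msx2 and Six5. At least 1 CPM was reached by 11 members (19.3% of the 57), against 58.3% of all genes in the table. Compared per kilobase of exon, Gbx2 was the highest in wild-type at 14.8 CPM per kb, followed by Msx2 at 4.21, Nkx6-2 at 2.60, Six5 at 2.53 and Lhx6 at 2.29. In all 14 libraries together 5 members had no count, and 27 stayed below a mean of 1 CPM in every line. The number of members with at least 1 CPM was 9 in Pcgf1-/- (57.6% of all genes), 14 in Pcgf2/4-/- (56.4%), 9 in Pcgf3/5-/- (58.9%), 15 in Pcgf6-/- (65.2%), 14 in Pcgf1/2/4-/- (56.7%) and 20 in Pcgf3/5/6-/- (64.9%). Members with no count in a line numbered 14 in Pcgf3/5/6-/- and 36 in Pcgf3/5-/-. Detection of all genes differed too: 74.3% and 73.7% had a count in the Pcgf3/5/6-/- libraries, 71.5% and 69.1% in Pcgf3/5-/- and 70.5% and 69.7% in wild-type.

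**Figure D1:**
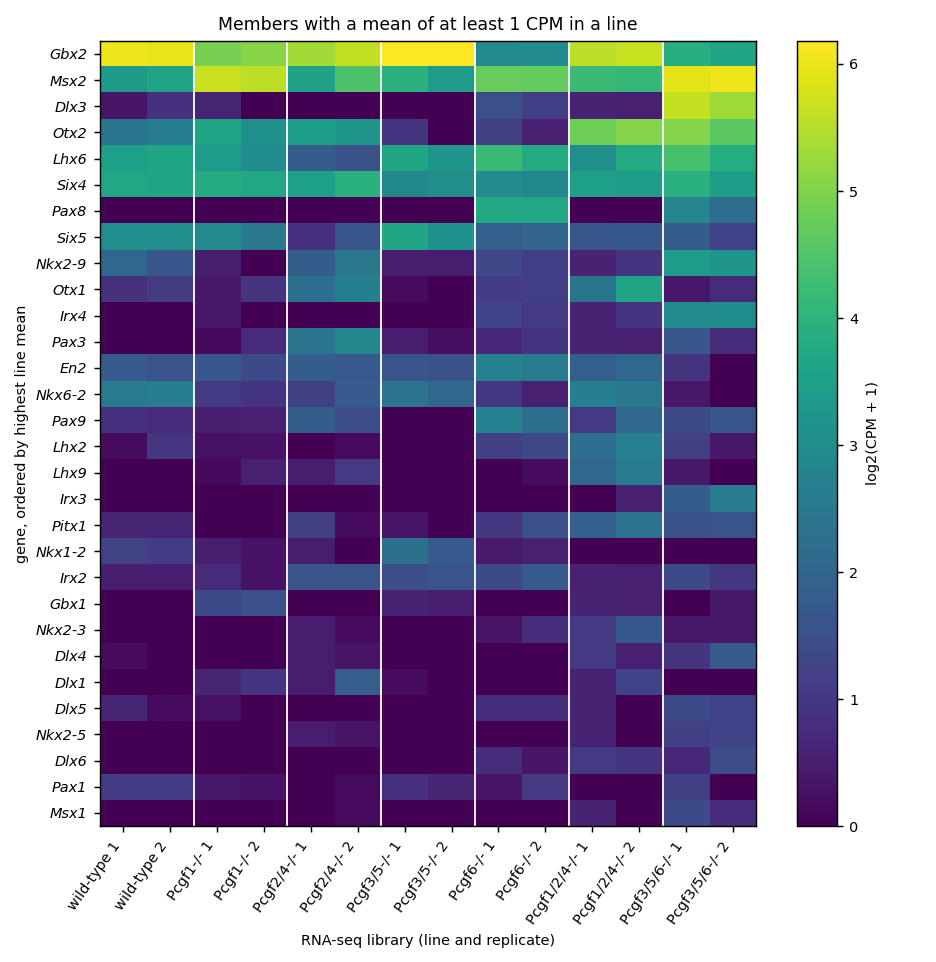
Expression of the 30 members that reached a mean of 1 CPM in at least 1 line; rows are genes, columns the 14 RNA-seq libraries, and colour is log2(CPM + 1). Gbx2 is bright in the wild-type and Pcgf3/5-/- columns and dim in Pcgf6-/-, Pax8 is lit in Pcgf6-/- and Pcgf3/5/6-/- only, and Dlx3 stands out in both Pcgf3/5/6-/- libraries.

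Pax6, Six3, Nkx2-2 and Dlx5 were near the limit of detection throughout. Pax6, a regulator of eye and forebrain, had 8 counts in the 2 wild-type libraries together and between 0 and 3 in any knockout library. Six3, which specifies the anterior forebrain, had 3 counts in all 14 libraries. Nkx2-2, a ventral neural tube factor, had 0 counts in wild-type and 6 in each Pcgf3/5-/- library, and Dlx5, which acts in branchial arches and forebrain, had 4 and 1 counts in wild-type and 6 and 5 in Pcgf6-/-. None of these 4 passed the filter on low counts. That filter left 22 of the 57 members (and 15464 of 23377 genes) in the tests, so counts of calls below cover only members with enough reads in some line, and a member that passed through a line where it is high was bound to look different there.

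Nearly every member lay in Polycomb chromatin in wild-type cells. A RING1B peak touched the window of 2.5 kb either side of a start at 55 of 57 members, against 15.8% of the 21001 genes with an annotated start, and a SUZ12 peak at 55 against 17.2%. H3K27me3 peaks were present at 51 members (13.4% of genes), H3K4me3 peaks at all 57 (68.4%), and 51 members had all 4, against 10.5% of genes. The members without RING1B or SUZ12 were Six4 and Pax4, which carried H3K4me3 alone. Those without an H3K27me3 peak were Six4, Pax4, Nkx1-2, Six5, Otx2 and Gbx2. Gbx2, Six4 and Six5 were among the 5 members above 5 CPM in wild-type, while Lhx6 and Msx2, the other two, did have an H3K27me3 peak. All peak values rest on 1 list a line, except RING1B and H2AK119ub1 in Pcgf1/2/4-/- with 2, so no test was possible and each count is read against the share of genes in the same list.

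Peaks of RING1B, SUZ12 and PCGF2 over the members were also broad and high within their wild-type lists. RING1B peaks covered a median of 4181 of the 5 kb round the start at the 55 members, against 1371 bp at all genes with a peak, and the whole window at 12 members (Pax6, Six3 and Lhx2 among them) against 0.195% of genes. The highest fold enrichment over background, as the authors' peak caller gave it, had a median of 23.4 at the members and 10.0 at all genes for RING1B. For SUZ12 these medians were 24.6 and 10.3, and for PCGF2 26.3 and 11.4. H3K27me3 heights were closer together, with medians of 6.80 and 6.14, and so were PCGF1 heights, with 7.565 and 7.36. H3K4me3 went the other way: its highest peak had a median fold of 19.7 at the members against 45.5 at all genes with a peak, and covered 1470 bp against 2065. At 52.5 and 63.8, Msx2 and Gbx2 had H3K4me3 peaks well above that member median, while Otx2 had 16.8. PCGF6 peaks were likewise lower and narrower at the members, with medians of 7.27 against 8.31 in fold and 301 against 404 bp.

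Of the PCGF proteins, PCGF2 was found at most members and PCGF3 at none in wild-type cells. PCGF2 peaks lay at 52 members (13.5% of genes), PCGF1 peaks at 22 (2.6%), PCGF6 peaks at 7 (5.83%) and PCGF3 peaks at 0 (0.89%). The 7 with PCGF6 were Lhx4, Pitx1, Barhl2, Pax5, Pax6, Pax9 and En1, and Lhx4, Pitx1, Pax5 and Pax6 carried RING1B with PCGF1, PCGF2 and PCGF6 together. Of these 7, Pitx1 and Pax9 also had a PCGF6 peak in Pcgf6-/-, where Pcgf6 RNA was at 0. Their highest folds there were 9.87 and 9.96, in no stated order, against 6.8 to 7.97 at the 7 members in wild-type. What gave these peaks in Pcgf6-/- was not tested. Msx2 was the member with RING1B and PCGF1 but no PCGF2. Six5 and Barhl1 had RING1B with none of the 4 PCGF peaks. These 4 antibodies gave lists of very different length, from 223 peaks for PCGF3 to 4472 for PCGF2, so presence is compared only within a list. Wild-type peaks of PCGF1, PCGF6 and H3K27me3 were weak: with a −log10 q of at least 20 required, a limit chosen after seeing the data, 0 members kept one.

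**Figure D2:**
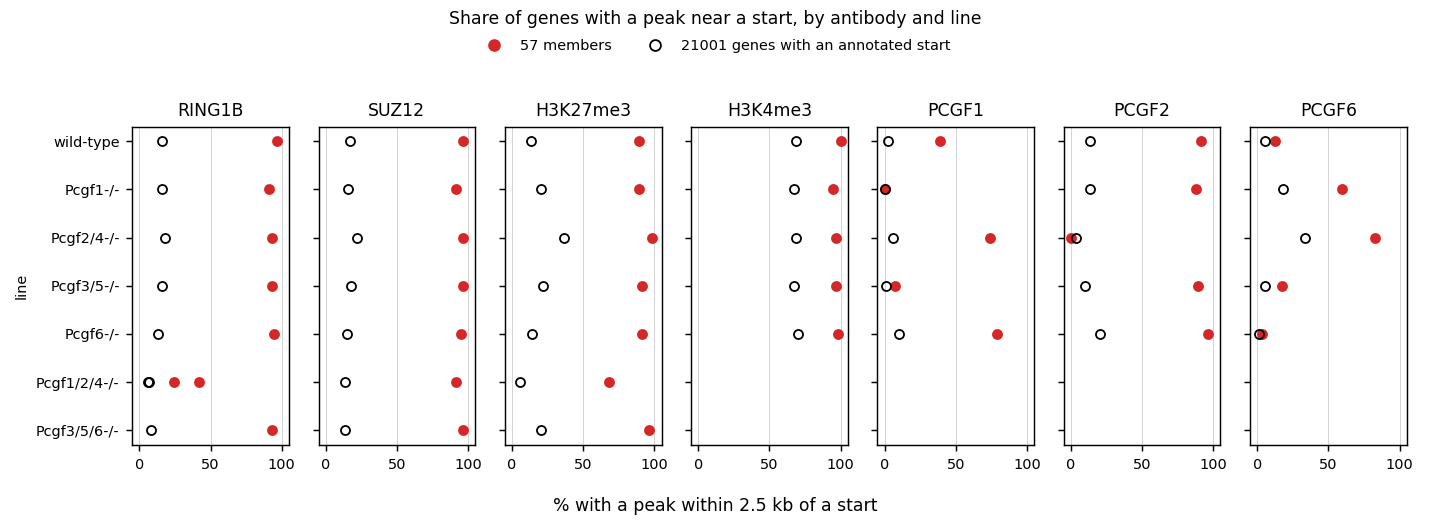
Share of the 57 members (red) and of all 21001 genes with an annotated start (open) that have a peak within 2.5 kb of a start, by antibody (panels) and line (rows), in percent; panels leave a row empty where no list was used, and both RING1B lists of Pcgf1/2/4-/- are drawn. The red points for RING1B stay above 90% except in Pcgf1/2/4-/-, where they fall to 42.1% and 24.6%.

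RING1B stayed at almost all members in every line but Pcgf1/2/4-/-. Peaks were found at 52 members in Pcgf1-/- (15.9% of genes), 53 in Pcgf2/4-/- (17.8%), 53 in Pcgf3/5-/- (16.1%), 54 in Pcgf6-/- (13.2%) and 53 in Pcgf3/5/6-/- (8.39%). In Pcgf1/2/4-/- they were found at 24 members in the first list (7.06%) and 14 in the second (6.28%). Of the 55 members with a wild-type peak, 96.4% kept one in Pcgf3/5/6-/- against 50.7% of all genes with a wild-type peak, and 43.6% and 25.5% did so in the Pcgf1/2/4-/- lists against 31.8% and 26.9%. Peak height was not matched between members and genes in these shares. Width and height fell in Pcgf2/4-/- although presence did not: the median covered length at the 55 members was 2258 bp, against 4181 in wild-type, and the median highest fold was 9.97. In Pcgf1/2/4-/- the median covered length was 0 and the peaks still called had a median fold of 6.25 in the first list, against 6.46 over all genes with a peak.

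**Figure D3:**
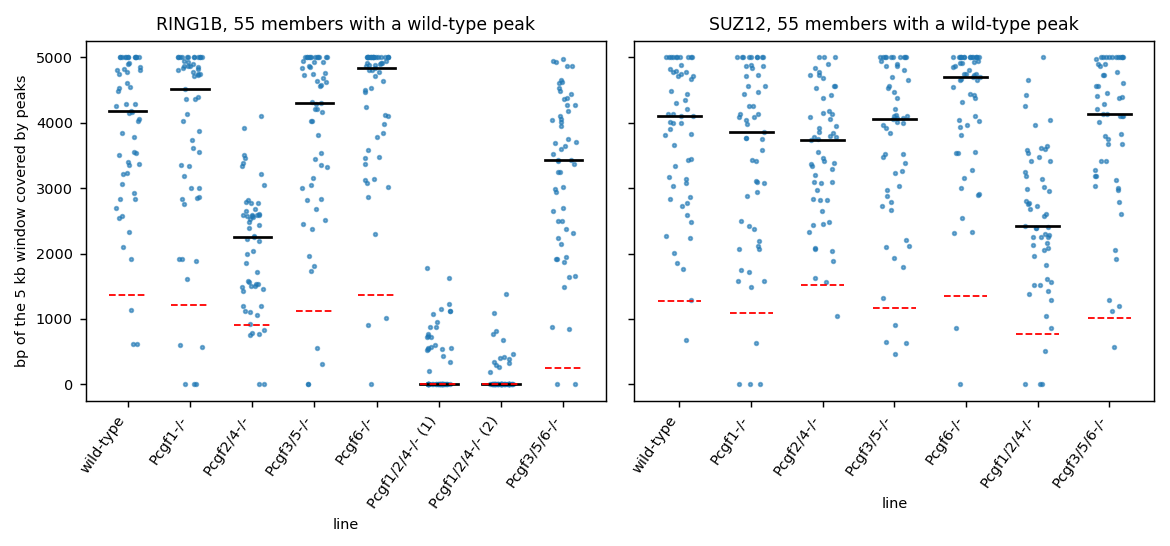
Base pairs of the 5 kb window that RING1B (left) and SUZ12 (right) peaks cover at each of the 55 members with a wild-type peak; points are members, the black line is their median and the red dashed line the median of all genes with a wild-type peak. The RING1B median drops from 4181 bp in wild-type to 2258 in Pcgf2/4-/- and 0 in both Pcgf1/2/4-/- lists, while SUZ12 keeps a median of 2420 bp there.

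Few members lost a RING1B peak elsewhere. Msx2, a target of BMP signalling in limb and skull, had 1141 bp of RING1B peak in wild-type and none in Pcgf1-/- or Pcgf3/5-/-. Gbx2, which places the boundary between midbrain and hindbrain and is also a gene of naive stem cells, had 3531 bp in wild-type, none in these lines and 4113 bp in Pcgf6-/-. Otx2, its partner on the forebrain and midbrain side and a gene of the primed pluripotent state, lost its 4181 bp in Pcgf2/4-/- and held 5001 bp, the whole window, in Pcgf6-/-. Six5 lost its peak of 620 bp in Pcgf1-/-, Pcgf6-/- and Pcgf3/5/6-/-, while Dlx4 lost its peak in Pcgf2/4-/- and Barhl1 in Pcgf3/5/6-/-. No member gained a RING1B peak in any knockout.

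In Pcgf1/2/4-/-, a larger share of members kept a SUZ12 or H3K27me3 peak than a RING1B peak. The same order held over all genes with a wild-type peak: 74.5% of those with SUZ12 kept it in Pcgf1/2/4-/-, against 94.5% of the members. SUZ12 peaks lay at 52 members there (13.8% of genes) and at 52 in Pcgf1-/- (15.9%), 55 in Pcgf2/4-/- (21.9%), 55 in Pcgf3/5-/- (17.7%), 54 in Pcgf6-/- (15.2%) and 55 in Pcgf3/5/6-/- (13.6%). Gbx2 and Six5 lost SUZ12 in both Pcgf1-/- and Pcgf1/2/4-/-, with Nkx1-2 in the former and Otx2 in the latter. H3K27me3 was found at 39 members in Pcgf1/2/4-/- (5.82%), against 51 in Pcgf1-/- (20.2%), 56 in Pcgf2/4-/- (36.8%), 52 in Pcgf3/5-/- (21.6%), 52 in Pcgf6-/- (14.2%) and 55 in Pcgf3/5/6-/- (20.3%). Of the 51 members with a wild-type peak, 74.5% kept one in Pcgf1/2/4-/-, against 38.4% of all genes with one. The 13 that lost it were Barhl2, Dlx6, Emx2, En2, Irx2, Irx5, Irx6, Msx1, Msx2, Nkx2-9, Nkx6-2, Otx1 and Pitx3. The Pcgf2/4-/- list is long, with 112110 peaks against 8063 in wild-type, and its members are read with that in mind.

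Otx2, Gbx2 and Msx2 are given here in detail for H3K27me3 because their RNA varied between lines. The lists differ in length: peaks covered 6.33 Mb in wild-type, 19.9 in Pcgf1-/-, 81.6 in Pcgf2/4-/-, 17.6 in Pcgf3/5-/-, 8.25 in Pcgf6-/-, 2.22 in Pcgf1/2/4-/- and 18.2 in Pcgf3/5/6-/-. At the 51 members with a wild-type peak the median covered length was 2533 bp in wild-type. It was 4467, 4262, 4499, 2272, 828 and 4657 bp in the knockouts, in that order. Gains and widths below are to be read with these values. Otx2 had no H3K27me3 peak in wild-type and gained one in Pcgf1-/- (1714 bp), Pcgf2/4-/- (2405 bp), Pcgf3/5-/- (1827 bp) and Pcgf6-/- (1106 bp), but had none in Pcgf1/2/4-/- or Pcgf3/5/6-/-. Gbx2 gained one in Pcgf2/4-/- (1339 bp) and in Pcgf3/5/6-/- (4330 bp). Gains were not limited to these genes: Nkx1-2 had a peak in every knockout list but that of Pcgf1-/-, and Pax4 in Pcgf1-/-, Pcgf2/4-/- and Pcgf3/5/6-/-. Lhx6, also expressed in wild-type, had a peak in all 7 lists. Msx2 lost its 723 bp in Pcgf1-/-, Pcgf3/5-/-, Pcgf6-/- and Pcgf1/2/4-/- and held 3553 bp in Pcgf3/5/6-/-, the line with its highest RNA level. H3K4me3 was lost at Pax4 in all 4 knockout lists deposited for that mark, at En1 and Irx1 in Pcgf1-/-, at Pax7 in Pcgf2/4-/- and at Nkx2-9 in Pcgf3/5-/-. It remained at 54 members in Pcgf1-/- (67.4% of genes), 55 in Pcgf2/4-/- (68.3%), 55 in Pcgf3/5-/- (67.1%) and 56 in Pcgf6-/- (70.2%).

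**Figure D4:**
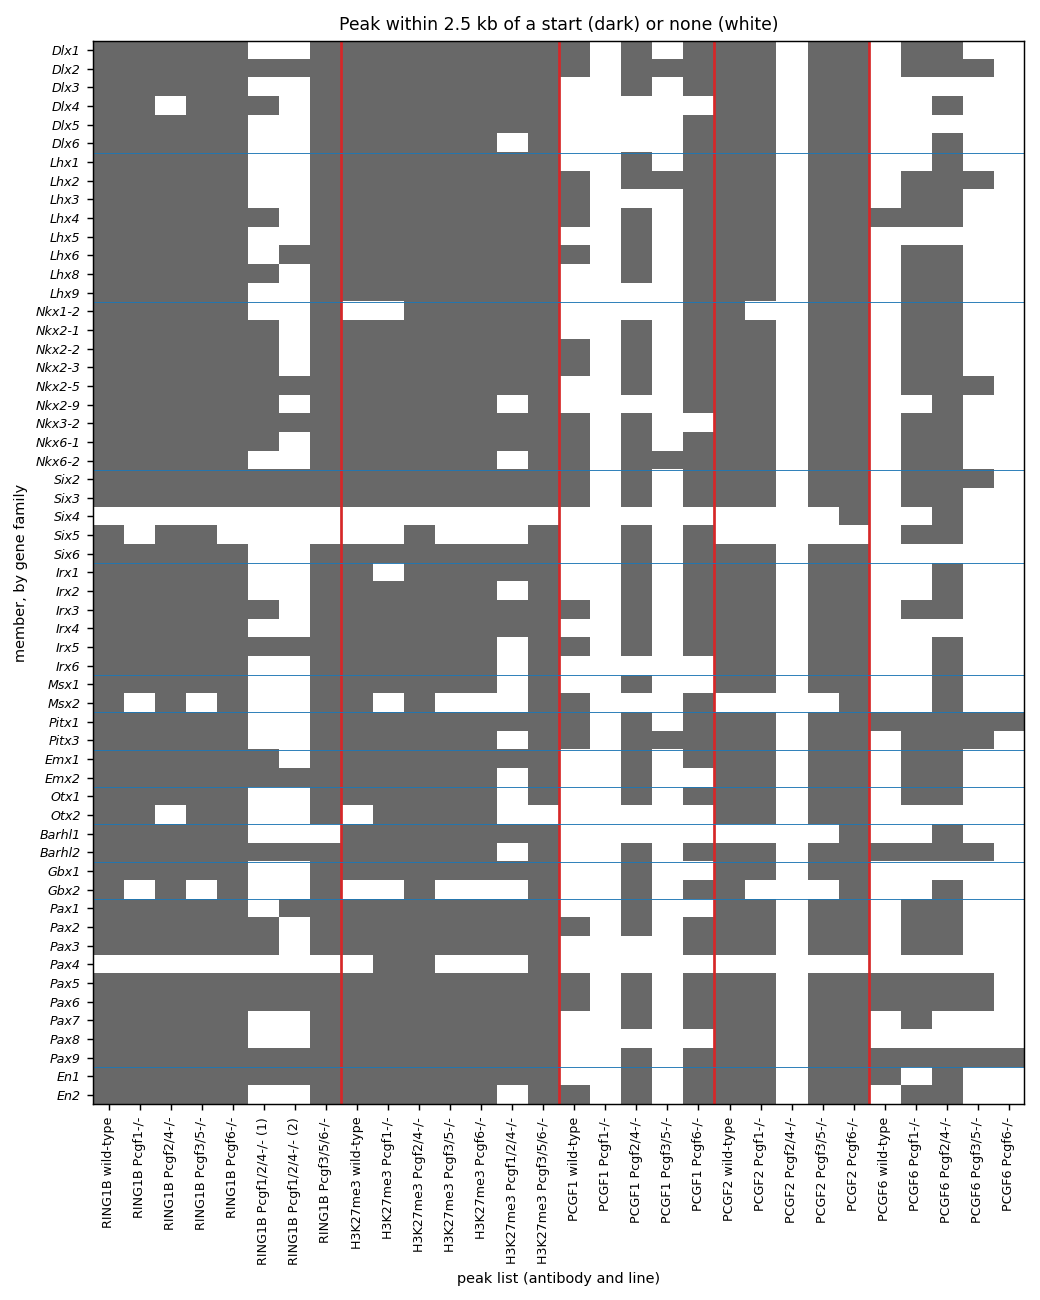
Presence (dark) or absence (white) of a peak within 2.5 kb of a start for each of the 57 members (rows, by family) in the RING1B and H3K27me3 lists of 7 lines and the PCGF1, PCGF2 and PCGF6 lists of 5 (columns); red lines part the antibodies and thin lines the gene families. White columns are PCGF1 in Pcgf1-/- and PCGF2 in Pcgf2/4-/-, and the Six4 and Pax4 rows are white in every RING1B list.

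PCGF peaks at the members moved between lines. PCGF1 peaks fell to 0 members in Pcgf1-/- (0.00952% of genes) and PCGF2 peaks to 0 in Pcgf2/4-/- (3.59%), the lines labelled as lacking these proteins. PCGF1 was found at 42 members in Pcgf2/4-/- (5.83%), of which 22 had no wild-type PCGF1 peak, at 45 in Pcgf6-/- (10.2%) and at 4 in Pcgf3/5-/- (0.824%). PCGF6 was found at 34 members in Pcgf1-/- (18.2%), 47 in Pcgf2/4-/- (33.5%), 10 in Pcgf3/5-/- (5.4%) and 2 in Pcgf6-/- (1.62%), where Pitx1 and Pax9 still had a peak. PCGF2 remained at 50 members in Pcgf1-/- (13.1%), 51 in Pcgf3/5-/- (10.2%) and 55 in Pcgf6-/- (20.4%), and Gbx2 was without it in Pcgf1-/- and Pcgf3/5-/-. At Pax6, for example, PCGF1 covered 679 bp in wild-type, 3366 bp in Pcgf2/4-/- and 2967 bp in Pcgf6-/-, and PCGF6 covered 301 bp in wild-type and 1556 bp in Pcgf2/4-/-. Over all genes with a wild-type PCGF1 peak, the median covered length was 491 bp in wild-type, 1206 in Pcgf2/4-/- and 1448 in Pcgf6-/-. For PCGF6 it was 404 bp in wild-type and 1043 in Pcgf2/4-/-. PCGF3 had a single member peak, at Gbx2 in Pcgf6-/- (2.31% of genes), and 0 in Pcgf1-/- (0.319%), Pcgf2/4-/- (0.419%) and Pcgf3/5-/- (0.0476%).

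In the lines labelled Ezh1/2-/- and Ring1a/b-/- no member had a PCGF2 peak, while PCGF1 peaks were still called. In Ezh1/2-/- PCGF2 peaks lay at 0 members (0.824% of genes), while PCGF1 peaks lay at 55 (11.5%), including all 22 of wild-type. In Ring1a/b-/- PCGF2 was at 0 members (1.63%) and PCGF1 at 20 (4.35%), against 55 (10.0%) and 56 (32.7%) in Ring1a-/-_Ring1bfl, the line it derives from. PCGF6 was at 6 members in Ring1a-/-_Ring1bfl (6.26%) and 0 in Ring1a/b-/- (4.83%). In hairpin-treated cells PCGF6 was at 47 members with shCtr (21.0%), at 0 with shMGA (0.729%), at 4 with shMGAdHLH (2.26%), at 1 with shE2F6 (1.88%) and at 1 with shE2F6-MGAdHLH (0.824%). The shCtr list held 7451 peaks and the wild-type PCGF6 list 1868, so both controls differ in how many peaks were called.

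Differences in RNA were tested for 11 comparisons with edgeR's quasi-likelihood test over all 15464 genes, with Benjamini-Hochberg adjustment and a threshold of 0.05. Nothing in the labels says that the libraries of a line came from separate cultures, so p-values measure only the spread between these libraries, which may be technical. Against wild-type, 3 members were raised and 4 lowered in Pcgf1-/- (13.9% and 18.4% of genes), 5 and 5 in Pcgf2/4-/- (8.1% and 13.5%), and 3 and 6 in Pcgf3/5-/- (11.1% and 10.4%). In Pcgf6-/- 7 were raised and 5 lowered (27.8% and 18.6%), in Pcgf1/2/4-/- 7 and 3 (14.4% and 22.6%), and in Pcgf3/5/6-/- 8 and 5 (28% and 25.3%). In both directions together, 7, 10, 9, 12, 10 and 13 of the 22 tested members were called in the order Pcgf1-/-, Pcgf2/4-/-, Pcgf3/5-/-, Pcgf6-/-, Pcgf1/2/4-/- and Pcgf3/5/6-/-, against 32.3%, 21.6%, 21.6%, 46.5%, 37% and 53.3% of genes. With the wild-type pair summed to 1 sample, the calls numbered 5, 9, 6, 12, 7 and 13 in the same order, all of them among those above. Medians over the 22 tested members were log2 -0.21, 0.00, -0.05, 0.85, 0.56 and 1.66 in that order, against -0.05, 0.00, 0.00, 0.03, -0.11 and 0.05 over all genes tested. With members at 0 counts in a group set to their lower bound, the last 3 became 0.35, 0.30 and 0.90. Under cyclic loess offsets they were 0.00, 0.83 and 0.36. Some members passed the filter through a line where they are high, so part of these medians was fixed by the filter. In Pcgf3/5/6-/-, for example, Irx3 had 22 of its 23 counts and Dlx3 had 268 of 306. Libraries thinned to the smallest total gave 4 calls in Pcgf1-/-, 3 in Pcgf2/4-/-, 2 in Pcgf3/5-/- and 4 in Pcgf6-/-. In Pcgf6-/- this ended the calls of Irx2 (adjusted p = 0.197), Otx2 (0.139), Six4 (0.277), Six5 (0.0648), En2 (0.144), Irx4 (0.0837) and Nkx6-2 (0.0539) described below, and in Pcgf1-/- that of Nkx6-2 (0.252). In Pcgf2/4-/- it ended those of Otx1 (log2 1.18, adjusted p = 0.312), Irx2 (0.23), Gbx2 (0.116), Nkx6-2 (0.19) and Nkx1-2 (0.342), and in Pcgf3/5-/- those of Irx2 (0.304), Nkx1-2 (0.435) and Six4 (0.495). In Pcgf1/2/4-/- it ended those of Pitx1 (0.0509), Nkx1-2 (0.109) and Gbx2 (0.0883), and in Pcgf3/5/6-/- those of Nkx1-2 (0.0726) and En2 (0.108). The authors' deposited tables listed 45 members. Raised and lowered there were 3 and 4 members in Pcgf1-/- (13.4% and 13.7% of genes with an adjusted p), 7 and 3 in Pcgf2/4-/- (8.34% and 10.6%), 0 and 5 in Pcgf3/5-/- (9.64% and 8.85%), 7 and 5 in Pcgf6-/- (23.6% and 14.4%), 10 and 1 in Pcgf1/2/4-/- (17.6% and 16.9%) and 9 and 4 in Pcgf3/5/6-/- (26.1% and 18.9%). The authors' deposited table for Pcgf6-/- gives its line another clone number than the count table does, so it may not rest on the same libraries.

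Otx2 and Gbx2, which oppose each other at the border of midbrain and hindbrain, were among the members that varied most. Otx2 was at 4.28 and 5.20 CPM in wild-type, 11.5 and 7.54 in Pcgf1-/-, 10.1 and 8.18 in Pcgf2/4-/-, 0.936 and 0 in Pcgf3/5-/-, 1.24 and 0.460 in Pcgf6-/-, 27.2 and 31.6 in Pcgf1/2/4-/- and 31.6 and 23.7 in Pcgf3/5/6-/-. Libraries of Pcgf1/2/4-/- and Pcgf3/5/6-/- were all above, and those of Pcgf3/5-/- and Pcgf6-/- all below, every library of the other 3 lines. The log2 fold change was 2.63 ± 0.34 in Pcgf1/2/4-/- (standard error; adjusted p = 7.22e-05) and 2.54 ± 0.33 in Pcgf3/5/6-/- (1.92e-05). Otx2 fell by 3.06 ± 0.60 on the log2 scale in Pcgf3/5-/- (0.00254) and by 2.38 ± 0.52 in Pcgf6-/- (0.00164). The rise of 1.06 ± 0.34 in Pcgf1-/- (adjusted p = 0.0289) was lost with the wild-type pair summed (0.0806), without either wild-type library (0.0894 to 0.174) and without Pcgf1-/- replicate 1 (0.336). The Pcgf6-/- line, with the lowest Otx2 RNA beside Pcgf3/5-/-, had RING1B and PCGF2 peaks over the whole window of 5 kb at Otx2. In the other 4 of the 7 lines with a PCGF2 list, Pcgf3/5-/- among them, neither protein covered all of it. Such cover was more frequent in Pcgf6-/- in general. PCGF2 covered the whole window at 26 members there against 2 in wild-type (0.895% and 0.0429% of genes), and RING1B at 19 against 12 (0.571% and 0.195%). A link between this cover and Otx2 RNA was not tested.

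Gbx2 was at 63.6 and 62.2 CPM in wild-type, 29.2 and 33.1 in Pcgf1-/-, 39.4 and 47.8 in Pcgf2/4-/-, 71.7 and 70.6 in Pcgf3/5-/-, 6.72 and 6.89 in Pcgf6-/-, 46.5 and 49.7 in Pcgf1/2/4-/- and 13.6 and 11.5 in Pcgf3/5/6-/-. Pcgf6-/- and Pcgf3/5/6-/- had the lowest libraries, and no library of Pcgf1-/-, Pcgf2/4-/- or Pcgf1/2/4-/- reached the wild-type pair. Gbx2 fell by 3.20 ± 0.14 (log2) in Pcgf6-/- (adjusted p = 6.45e-10), by 2.32 ± 0.15 in Pcgf3/5/6-/- (2.58e-08) and by 1.03 ± 0.12 in Pcgf1-/- (2.1e-05). The falls of 0.50 ± 0.12 in Pcgf2/4-/- (0.00731) and 0.39 ± 0.13 in Pcgf1/2/4-/- (0.0283) are small, and each was lost under some alternatives, the latter with an adjusted p of 0.764 under cyclic loess offsets and 0.0903 with the wild-type pair summed. Without wild-type replicate 1 the former had an adjusted p of 0.0595. Gbx2 shares 1372 bp of exon with D130058E05Rik on the other strand, and without stated use of strand their reads cannot be told apart. Gbx1, the paralog, had no count in wild-type and 1.64 and 1.83 CPM in Pcgf1-/-, at least 8.16-fold higher (adjusted p = 0.000525, 0.0653 in thinned libraries).

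Otx1 and En2, also genes of the anterior nervous system, were raised in Pcgf2/4-/- and Pcgf1/2/4-/- and in Pcgf6-/-, respectively. Otx1, an Otx2 paralog of forebrain and sense organs, was at 0.856 and 1.13 CPM in wild-type, 3.77 and 5.37 in Pcgf2/4-/-, 4.27 and 11.3 in Pcgf1/2/4-/- and 0.316 and 0.676 in Pcgf3/5/6-/-. All Pcgf2/4-/- and Pcgf1/2/4-/- libraries were above wild-type, by log2 2.29 ± 0.46 (adjusted p = 0.00321, 0.0612 without Pcgf2/4-/- replicate 2) and 2.99 ± 0.50 (0.000533). En2, which acts with Pax genes in the midbrain and cerebellum, was at 2.43 and 1.97 CPM in wild-type, 5.60 and 4.75 in Pcgf6-/- and 0.948 and 0 in Pcgf3/5/6-/-. Its rise of 1.24 ± 0.32 in Pcgf6-/- (adjusted p = 0.00493) was lost under cyclic loess offsets (0.52) and without Pcgf6-/- replicate 1 (0.0559) or wild-type replicate 2 (0.0541). In Pcgf3/5/6-/- En2 had 3 counts against 31 in wild-type, a level 4.49-fold lower with a 95% counting interval of 1.4 to 22.9 (adjusted p = 0.0178). That call was lost without Pcgf3/5/6-/- replicate 2 (0.203) or wild-type replicate 1 (0.064).

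The Msx and Dlx genes, which act downstream of BMP signals in ectoderm, branchial arches and limb, included the largest rises in CPM among the members. Msx2 was at 9.42 and 11.3 CPM in wild-type, 50.3 and 46.6 in Pcgf1-/-, 10.9 and 21.1 in Pcgf2/4-/-, 14.4 and 9.59 in Pcgf3/5-/-, 25.8 and 25.4 in Pcgf6-/-, 17.6 and 16.3 in Pcgf1/2/4-/- and 60.0 and 64.2 in Pcgf3/5/6-/-. The Pcgf3/5/6-/-, Pcgf1-/- and Pcgf6-/- pairs lay apart from each other and above wild-type in this order, while Pcgf2/4-/- and Pcgf3/5-/- overlapped wild-type and Pcgf1/2/4-/- lay above it without passing the test. Msx2 rose by log2 2.58 ± 0.22 in Pcgf3/5/6-/- (adjusted p = 4.76e-07), 2.23 ± 0.22 in Pcgf1-/- (5.66e-06) and 1.31 ± 0.22 in Pcgf6-/- (0.00023). In Pcgf2/4-/- the value was 0.77 ± 0.24 (0.0357), with overlapping libraries. Msx2 had a RING1B peak of 880 bp in Pcgf3/5/6-/- and none in Pcgf1-/-.

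Dlx3, known for its need in the placenta and in skin and hair, was at 0.285 and 0.844 CPM in wild-type, 0.547 and 0 in Pcgf1-/-, 1.87 and 1.23 in Pcgf6-/- and 0.534 and 0.452 in Pcgf1/2/4-/-, and had no count in Pcgf2/4-/- or Pcgf3/5-/-. It stood at 48.7 and 38.5 CPM in Pcgf3/5/6-/-, with both libraries far above all others. The log2 fold change against wild-type was 6.21 ± 0.39 (adjusted p = 1.15e-07). Trophoblast markers were high in the same libraries, as given above, and their part in this value was not tested. RING1B covered 1945 bp at Dlx3 in Pcgf3/5/6-/- against 2548 bp in wild-type, and SUZ12 covered 2600 against 2728. Other Dlx genes stayed low: Dlx5 and Dlx6 had 9 and 7 counts in Pcgf3/5/6-/-, and Dlx1 was highest in Pcgf2/4-/- with 21 of its 36 counts in 1 library.

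**Figure D5:**
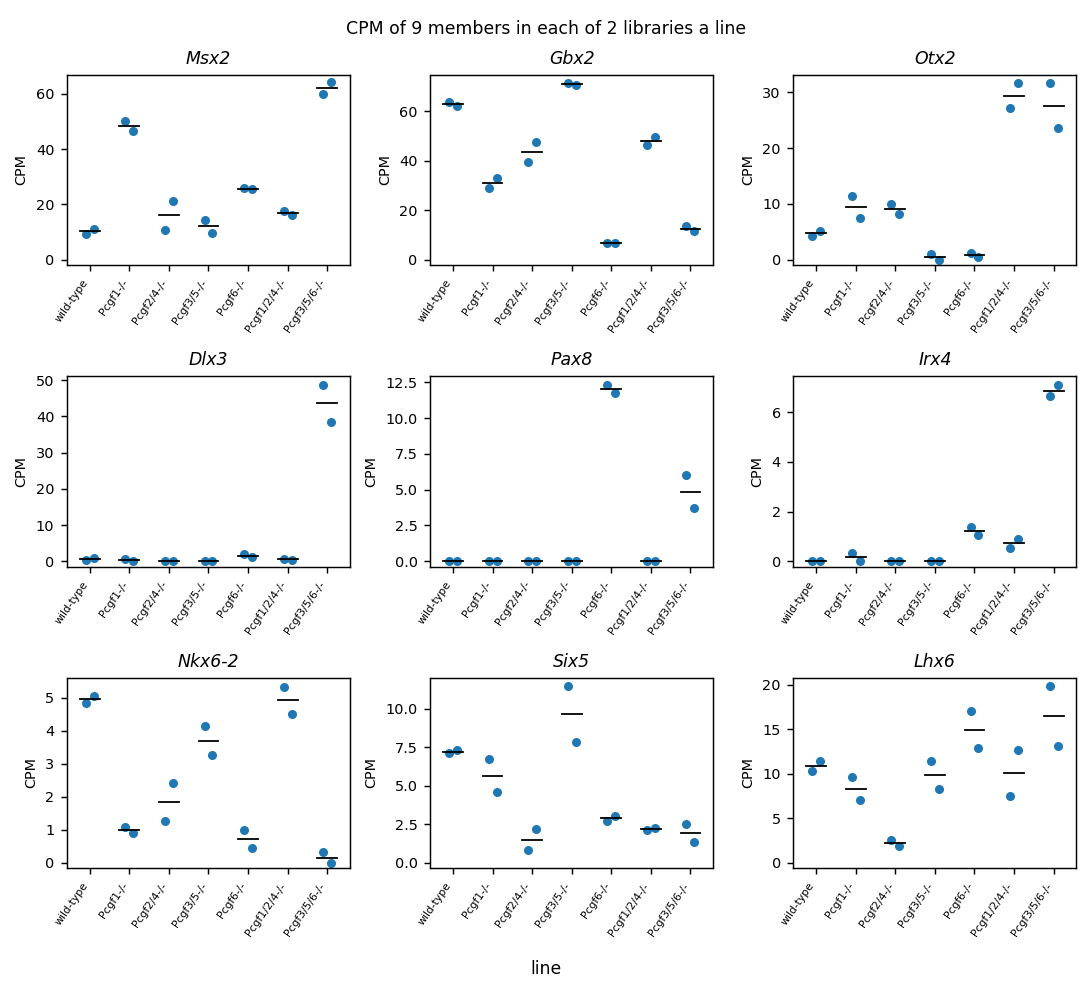
CPM (linear axes from just below 0) of 9 members in each RNA-seq library of the 7 lines; points are libraries and bars the mean of both. Dlx3 is high in Pcgf3/5/6-/- alone, Pax8 in Pcgf6-/- and Pcgf3/5/6-/-, and Lhx6 is low in Pcgf2/4-/- alone.

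Among the Pax genes, Pax8, Pax3 and Pax9 each rose in at least 1 line. Pax8, which is required in thyroid and kidney, had no count in wild-type, Pcgf1-/-, Pcgf2/4-/-, Pcgf3/5-/- or Pcgf1/2/4-/- and was at 12.3 and 11.8 CPM in Pcgf6-/- and 6.00 and 3.72 in Pcgf3/5/6-/-. These were at least 56.8-fold and 22.9-fold above wild-type (adjusted p = 4.48e-06 and 0.000107). Both lines kept RING1B at Pax8, over 3139 and 2320 bp. Pax3, a factor of the dorsal neural tube, neural crest and muscle precursors, had no count in wild-type and was at 4.19 and 6.26 CPM in Pcgf2/4-/-, at least 24.6-fold higher (adjusted p = 6.86e-05). In Pcgf3/5/6-/- Pax3 was at 2.21 and 0.676 CPM, at least 6.79-fold higher (adjusted p = 0.00249), a call that ended without Pcgf3/5/6-/- replicate 1 (0.0541). Pax9, a factor of pharyngeal pouches and teeth, was at 0.856 and 0.703 CPM in wild-type and 5.73 and 3.68 in Pcgf6-/-, with log2 2.58 ± 0.41 (adjusted p = 0.000157). Pax8 shares 87 bp of exon with Gm13415 and Pax9 shares 189 bp with Slc25a21 on the other strand.

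Of the 6 Irx genes, which pattern heart, limb and neural tube, Irx2, Irx3 and Irx4 were tested and each rose in at least 1 line, while Irx1, Irx5 and Irx6 had 5, 3 and 6 counts in all libraries and were not tested. Irx4, a ventricular factor of the heart, had no count in wild-type, Pcgf2/4-/- or Pcgf3/5-/- and was at 1.37 and 1.07 CPM in Pcgf6-/- and 6.64 and 7.10 in Pcgf3/5/6-/-. These were at least 5.75-fold (adjusted p = 0.0012, 0.0837 in thinned libraries) and 32.3-fold (7.27e-06) above wild-type. Irx3 was detected in Pcgf3/5/6-/- at 2.53 and 4.73 CPM and otherwise by 1 count in Pcgf1/2/4-/-, at least 17.1-fold above wild-type (adjusted p = 0.000296), but DESeq2 gave an adjusted p of 0.286. Irx2 was at 0.428 and 0.422 CPM in wild-type and rose to 2.09 and 2.04 in Pcgf2/4-/-, 1.74 and 2.11 in Pcgf3/5-/- and 1.62 and 2.45 in Pcgf6-/-. Its log2 changes were 2.21 ± 0.51 (adjusted p = 0.00692), 2.10 ± 0.50 (0.00815) and 2.17 ± 0.48 (0.00176). The first was lost without Pcgf2/4-/- replicate 2 (0.0557), the second without either wild-type library (0.0567 and 0.0612), and the last under cyclic loess offsets (0.252). Irx2 kept a RING1B peak in these 3 lines, as the plot of peak presence shows.

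Of the 9 Nkx genes, factors of the ventral neural tube and other tissues, Nkx6-2, Nkx2-9 and Nkx1-2 were tested. Nkx6-2, a factor of ventral progenitors and oligodendrocytes, was at 4.85 and 5.06 CPM in wild-type, 1.09 and 0.914 in Pcgf1-/-, 1.26 and 2.43 in Pcgf2/4-/-, 4.14 and 3.26 in Pcgf3/5-/-, 0.996 and 0.460 in Pcgf6-/-, 5.34 and 4.52 in Pcgf1/2/4-/- and 0.316 and 0 in Pcgf3/5/6-/-. Libraries of Pcgf1/2/4-/- overlapped wild-type, and all others lay below it. Nkx6-2 fell by log2 2.68 ± 0.39 in Pcgf6-/- (adjusted p = 5.63e-05), 2.24 ± 0.37 in Pcgf1-/- (0.000445) and 1.21 ± 0.34 in Pcgf2/4-/- (0.0219, lost without either wild-type library, 0.0741 and 0.0914, or without Pcgf2/4-/- replicate 1, 0.0648). In Pcgf3/5/6-/- it had 1 count against 70, a ratio of 30.4 (95% counting interval 5.28 to 1217; adjusted p = 7.3e-05). Nkx6-2 shares 245 bp of exon with Inpp5a on the other strand.

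Nkx2-9, a factor of the floor plate and lung, was at 3.14 and 2.11 CPM in wild-type, 0.437 and 0 in Pcgf1-/-, 0.401 and 0.384 in Pcgf3/5-/- and 9.48 and 8.45 in Pcgf3/5/6-/-. It fell by log2 3.06 ± 0.59 in Pcgf1-/- (adjusted p = 0.00138) and 2.66 ± 0.57 in Pcgf3/5-/- (0.00429) and rose by 1.77 ± 0.34 in Pcgf3/5/6-/- (0.00052). Nkx1-2, a gene of the tail bud, was at 1.28 and 1.13 CPM in wild-type and 3.88 and 2.49 in Pcgf3/5-/-, where its rise of 1.43 ± 0.41 (adjusted p = 0.0277) was lost with the wild-type pair summed (0.058), under DESeq2 (0.218), and without either wild-type library (0.107 and 0.147) or Pcgf3/5-/- replicate 1 (0.257). It had no count in Pcgf1/2/4-/- or Pcgf3/5/6-/-, at least 1.64-fold and 2.46-fold lower than wild-type (adjusted p = 0.0369 and 0.0107). In Pcgf2/4-/- it had 1 count against 17, a ratio of 12.3 with an interval of 1.93 to 514 (adjusted p = 0.0263). Each of these falls of Nkx1-2 was lost without at least 1 of its libraries. The highest adjusted p with 1 library left out was 0.155, 0.0621 and 0.368 for Pcgf1/2/4-/-, Pcgf3/5/6-/- and Pcgf2/4-/-.

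The LIM homeobox genes split between Lhx6, expressed in wild-type, and Lhx2 and Lhx9, raised in Pcgf1/2/4-/-. Lhx6, a factor of forebrain interneurons and oral mesenchyme, was at 10.3 and 11.4 CPM in wild-type and 2.51 and 1.92 in Pcgf2/4-/-, below every library of the other lines. It fell by log2 2.37 ± 0.37 there (adjusted p = 0.000595) and was at 7.47 and 12.6 CPM in Pcgf1/2/4-/-, which is labelled as lacking Pcgf2 and Pcgf4 too. Lhx2, needed for eye and cortex, was at 0.143 and 0.985 CPM in wild-type and 3.74 and 5.42 in Pcgf1/2/4-/-, a rise of log2 2.98 ± 0.61 (adjusted p = 0.00252, 0.051 without Pcgf1/2/4-/- replicate 2). Lhx9, its close relative, had no count in wild-type and 3.20 and 4.97 CPM in Pcgf1/2/4-/-, at least 19.2-fold higher (adjusted p = 0.000283). Both Pcgf1/2/4-/- libraries were above all libraries of every other line for these 2 genes. Neither gene had a RING1B peak in either Pcgf1/2/4-/- list, against 5001 bp at Lhx2 in wild-type. Pitx1, a hindlimb and pituitary gene, was at 0.571 and 0.563 CPM in wild-type and 2.67 and 4.06 in Pcgf1/2/4-/-, a rise of log2 2.55 ± 0.70 (adjusted p = 0.0129, 0.143 without Pcgf1/2/4-/- replicate 2).

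Six4 and Six5, which act in muscle and sense organs, were the members of their family expressed in wild-type, and both fell where they changed. Six5 was at 7.13 and 7.31 CPM in wild-type, 6.78 and 4.57 in Pcgf1-/-, 0.838 and 2.17 in Pcgf2/4-/-, 11.5 and 7.86 in Pcgf3/5-/-, 2.74 and 3.06 in Pcgf6-/-, 2.14 and 2.26 in Pcgf1/2/4-/- and 2.53 and 1.35 in Pcgf3/5/6-/-. Pcgf3/5-/- was above wild-type and Pcgf1-/- below it without passing the test, and the other 4 lines lay lower than both. Six5 fell by log2 1.97 ± 0.37 in Pcgf2/4-/- (adjusted p = 0.0021), 1.87 ± 0.42 in Pcgf3/5/6-/- (0.00193) and 1.70 ± 0.47 in Pcgf1/2/4-/- (0.0129, 0.0911 and 0.0964 without either of its libraries). In Pcgf6-/- Six5 fell by 1.32 ± 0.31 on the log2 scale (0.00281). Six4, which had no RING1B peak, was at 11.8 and 11.7 CPM in wild-type, 6.42 and 7.29 in Pcgf3/5-/- and 6.85 and 6.43 in Pcgf6-/-. It fell by log2 0.82 ± 0.21 in Pcgf6-/- (adjusted p = 0.00582) and 0.79 ± 0.22 in Pcgf3/5-/- (0.02), and the latter was lost without any 1 of the 4 libraries (0.0529 to 0.149).

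The other calls against wild-type rest on few counts. Pitx1 had no count in Pcgf1-/- (at least 2.55-fold lower, adjusted p = 0.0376), and Pax9 and Lhx2 had none in Pcgf3/5-/- (at least 3.30- and 2.39-fold lower, 0.0162 and 0.0473). Otx1 had 1 count in Pcgf3/5-/- against 14, a ratio of 12.6 (95% counting interval 1.92 to 532; adjusted p = 0.0404). Gbx1 was at least 2.16-fold higher in Pcgf3/5-/- and 2.32-fold higher in Pcgf1/2/4-/-, Lhx9 at least 3.39-fold higher in Pcgf2/4-/-, Pax3 at least 3.63-fold higher in Pcgf6-/- and Irx4 at least 3.38-fold higher in Pcgf1/2/4-/-, all against 0 counts in wild-type. These genes reached between 0.38 and 1.02 CPM there.

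Each line labelled for 3 Pcgf genes was set beside those labelled for fewer of these genes, with the RNA of the targeted genes as given above. Against Pcgf3/5-/-, Pcgf3/5/6-/- had 12 members raised and 5 lowered (27.1% and 24.7% of genes), and against Pcgf6-/- 8 and 3 (19% and 27%). Dlx3 was at least 184-fold above Pcgf3/5-/- (adjusted p = 7.49e-08) and log2 4.77 ± 0.33 above Pcgf6-/- (8.14e-07). Otx2 was log2 4.92 ± 0.43 above Pcgf6-/- (1.7e-06) and Nkx2-9 2.69 ± 0.38 (6.48e-05), while Irx3 was at least 17.6-fold higher (0.000409; 0.306 by DESeq2). Pax8 and Pax9 were lower than in Pcgf6-/- by log2 1.30 ± 0.31 (0.00714, 0.0718 without Pcgf3/5/6-/- replicate 2) and 1.40 ± 0.43 (0.0181, up to 0.141 with 1 library left out). Gbx2 was lower than in Pcgf3/5-/- by log2 2.5 ± 0.15 (1.29e-08) and Six5 by 2.32 ± 0.41 (0.000272). Irx4, Pax8 and Irx3 were at least 29.1-, 20.6- and 15.4-fold above Pcgf3/5-/-, where they had no count, and DESeq2 gave Irx3 an adjusted p of 0.302. Nkx1-2 was at least 6.50-fold lower, and Nkx6-2 had 1 count against 48, a ratio of 23.2 (95% counting interval 3.97 to 934).

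Pcgf1/2/4-/- had 8 members raised and 2 lowered against Pcgf1-/- (19.6% and 22% of genes), and 6 and 2 against Pcgf2/4-/- (11.6% and 18.4%). Against Pcgf1-/-, Msx2 was lower by log2 1.52 ± 0.25 (adjusted p = 0.000315) and Otx1 higher by 3.89 ± 0.57 (0.000144), and Pitx1 was at least 15.2-fold higher (0.000658). Against Pcgf2/4-/-, Lhx6 was higher by log2 2.29 ± 0.45 (0.00165, 0.057 without Pcgf1/2/4-/- replicate 2) and Pax3 had 2 counts against 59 (ratio 11.8, interval 3.13 to 99.8; adjusted p = 0.00354, 0.0524 without that replicate). Lhx2 was above both lines, with 19 counts against 3 in Pcgf1-/- and 1 in Pcgf2/4-/- (ratios 21 and 47.5, intervals 6.17 to 111 and 7.55 to 1973). Between the 2 lines labelled for 3 genes, 6 members were higher and 6 lower in Pcgf3/5/6-/- (27.3% and 17.8%). Dlx3 had 268 counts against 2 (ratio 89.3, interval 24.5 to 742) and Pax8 was at least 6.62-fold higher. Otx1 had 3 counts against 33 (ratio 16.5, interval 5.17 to 84.1), and Lhx9 and Nkx6-2 had 1 count each against 17 and 20. En2 had 3 counts against 12 (ratio 6, interval 1.62 to 33.1), a call lost without Pcgf1/2/4-/- replicate 2 (0.0881) or Pcgf3/5/6-/- replicate 2 (0.118) and in thinned libraries (0.0769), and 3 against 76 in Pcgf6-/- (ratio 10.7, interval 3.51 to 52.8). Otx2 was high in both lines and is not among these calls.

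Related genes outside the 57 were counted from lists. Of 69 other developmental homeobox genes, 66 were in the table and 29 were tested. Raised and lowered were 7 and 9 in Pcgf1-/- (13.9% and 18.4% of genes), 3 and 4 in Pcgf2/4-/- (8.1% and 13.5%) and 4 and 3 in Pcgf3/5-/- (11.1% and 10.4%). The numbers were 9 and 8 in Pcgf6-/- (27.8% and 18.6%), 8 and 4 in Pcgf1/2/4-/- (14.4% and 22.6%) and 11 and 7 in Pcgf3/5/6-/- (28% and 25.3%). The median log2 fold change of these homeobox genes was 0.42 in Pcgf6-/- and 0.50 in Pcgf3/5/6-/-, against 0.03 and 0.05 over all genes tested. They passed the same filter on low counts, so the limit given for the medians of the members can hold for them too. Of 34 genes of the signals that pattern the embryo (Shh, Fgf, Bmp, Wnt, Nodal and retinoic acid), 29 were tested. In Pcgf3/5/6-/- 15 were raised and 3 lowered (28% and 25.3% of genes), and in Pcgf6-/- 7 and 11 (27.8% and 18.6%). All 35 genes for Polycomb components were tested, with 8 raised and 7 lowered in Pcgf3/5/6-/- (28% and 25.3% of genes) and 1 and 3 in Pcgf2/4-/- (8.1% and 13.5%).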

How the data were processed

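Whole-number read counts per gene were deposited by the authors for 14 RNA-seq libraries, and peaks were deposited as 80 lists holding 1189711 peaks, with fold enrichment (a ratio) and −log10 q values as the authors' peak caller gave them. The authors' deposited tables of log2 fold changes and adjusted p-values were read for the members only. The submitters' processing notes name TopHat2 2.1.1, Bowtie 1.2.2, Picard 1.62, HTSeq 0.7.2, DESeq, DESeq2 3.7, MACS2 2.1.1, bcl2fastq 2 and build mm9, without saying which step each served. For strand use in counting and the control behind the peak calls, the answer is not given in the sources used here. Per the labels' protocols, libraries began from polyadenylated RNA.

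Counts were tested in R 4.3.3 with edgeR 4.0.16 (filterByExpr, trimmed mean of M values, quasi-likelihood fit over all 14 libraries, Benjamini-Hochberg adjustment over 15464 genes, threshold 0.05). The biological coefficient of variation was 12.3%, and the procedure was tested on simulated data. Group was the only term, and replicate numbers were not used as a block. Alternatives were DESeq2 1.42.0, relative log expression factors, cyclic loess offsets from limma 3.58.1, no filter, only the groups compared, thinned libraries, a log2 change of at least 1, a replicate block, the wild-type pair summed, and each library left out. A fold against a group at 0 was computed against 3 counts over the group and is a lower bound. Intervals of ratios are exact 95% counting intervals and cover counting error only.

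Peaks were assigned with Python 3.11.15 (pandas 2.3.3, numpy 2.4.6; figures with matplotlib 3.10.9) to a gene when they overlapped 2.5 kb either side of an annotated start by at least 1 bp, for 21001 genes. Alternatives were 1 kb, a −log10 q of at least 5, and a −log10 q of at least 20, the last added after seeing the data. All alternatives for H2AK119ub1 were also added then.

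Members named with full statistics were those past the threshold, at 1 CPM or more in either group, with both libraries of a line beyond both of the other, up to 6 in each direction against wild-type and up to 4 between knockouts, plus Otx2, Pax6, Nkx2-2, Six3, Dlx5, Lhx2 and Msx2 in any case; others named were chosen after their values were seen. The members and the lists (other developmental homeobox genes, patterning signals, Polycomb components, and markers of pluripotent, trophoblast, primitive endoderm, neural, mesendoderm and fibroblast cells) were chosen with earlier results of these data known. The input ChIP-seq sample was not used here.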

Additional observations from a re-analysis of the deposited data

How the results depend on the processing

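With 1 library left out at a time, the number of members called against wild-type ran from 5 to 6 in Pcgf1-/-, 5 to 9 in Pcgf2/4-/-, 3 to 4 in Pcgf3/5-/-, 11 to 12 in Pcgf6-/-, 3 to 6 in Pcgf1/2/4-/- and 11 to 13 in Pcgf3/5/6-/-. Between knockouts it ran from 8 to 9 for Pcgf1/2/4-/- against Pcgf1-/-, 2 to 8 against Pcgf2/4-/-, 14 to 17 for Pcgf3/5/6-/- against Pcgf3/5-/-, 9 to 10 against Pcgf6-/- and 9 to 12 against Pcgf1/2/4-/-. Thinning to the smallest library gave 4 calls in Pcgf1-/-, 3 in Pcgf2/4-/-, 2 in Pcgf3/5-/-, 4 in Pcgf6-/-, 6 in Pcgf1/2/4-/- and 5 for Pcgf1/2/4-/- against Pcgf2/4-/-. DESeq2 also gave 5 for that last comparison. Without a filter there were 21 calls in Pcgf3/5/6-/- and 17 for Pcgf3/5/6-/- against Pcgf6-/-, and fitting only the 2 groups gave 4 in Pcgf2/4-/-. Of 721 values of named members under alternatives that keep all libraries, 659 stayed on their side of the threshold, 62 were no longer past it and 0 changed direction. With 1 library left out these numbers were 277, 59 and 0 of 336. Replicate numbers did not pair the libraries over all lines: the correlation of same-numbered deviations over 21 pairs of lines ran from -0.46 to 0.38 and exceeded 0.1 in 3. Those 3 joined Pcgf1-/-, Pcgf3/5-/- and Pcgf6-/- (0.38, 0.22 and 0.20), and Pcgf2/4-/- was at -0.46, -0.40 and -0.24 with these lines. Replicate 1 had the larger library total in Pcgf1-/-, Pcgf3/5-/- and Pcgf6-/-, but the smaller in Pcgf2/4-/- (2764111 against 7547984 counts). Whether depth has a part in these correlations was not tested. With the replicate block all 84 values of named members stayed on their side of the threshold.

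In the 1 kb window, 0 members had PCGF3 in Pcgf6-/-, and 4 and 2 had H2AK119ub1 in the Pcgf1/2/4-/- lists. A −log10 q of at least 5 moved no count by over 1.5 times. With at least 20 required, PCGF1 was left at 0 members in wild-type, 3 in Pcgf2/4-/-, 0 in Pcgf3/5-/-, 0 in Pcgf6-/-, 20 in Ezh1/2-/- and 0 in Ring1a/b-/-. PCGF6 was left at 0 members in wild-type, 4 in Pcgf1-/-, 19 in Pcgf2/4-/-, 0 in Pcgf3/5-/-, Pcgf6-/-, Ring1a-/-_Ring1bfl, shMGAdHLH, shE2F6 and shE2F6-MGAdHLH, and 1 in shCtr. H3K27me3 was left at 0, 1 and 0 members in wild-type, Pcgf6-/- and Pcgf1/2/4-/-, and RING1B at 3 and 2 in the Pcgf1/2/4-/- lists. PCGF3 was left at 0 in Pcgf6-/-, and H2AK119ub1 at 0 in wild-type, 20 in Pcgf1-/-, 0 in Pcgf6-/- and 0 in both Pcgf1/2/4-/- lists. The cause of these changes was not tested. Members under the floor of 3 counts, worth up to 1.60 CPM in the shallowest library, were not detectable at this depth.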

Other observations

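H2AK119ub1, the mark that RING1A and RING1B write, was looked at after the other lists had been seen. In wild-type cells 42 of the 57 members had a peak, against 3.96% of genes, from a list of 1741 peaks. The 15 without one were Dlx6, Nkx1-2, Nkx2-1, Nkx2-9, Six4, Six5, Irx5, Msx2, Emx2, Otx2, Barhl2, Gbx2, Pax3, Pax4 and Pax8, and of these only Six4 and Pax4 also lacked RING1B. The mark lay at 48 members in Pcgf1-/- (10.3%), 48 in Pcgf6-/- (7.25%) and 55 in Pcgf3/5/6-/- (32.2%), and at 12 and 6 in the Pcgf1/2/4-/- lists (1.73% and 0.857%). All 57 had it in Pcgf2/4-/- (42.1%) and Pcgf3/5-/- (66.9%), whose lists held 121944 and 128786 peaks. Dlx3, which had its highest RNA in Pcgf3/5/6-/-, carried 3291 bp of the mark there and 379 bp in wild-type, and Msx2 carried 4299 bp there and none in wild-type, while Otx2 had none in either. At the 42 members with a wild-type peak, the median covered length was 1164 bp in wild-type and 4701.5 bp in Pcgf3/5/6-/-. At all genes with a wild-type peak it was 667 and 3946 bp.

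H3K36me3, a mark of transcribed gene bodies, touched the window at 2 members in wild-type (27.8% of genes), Lhx3 and Six5. Lhx3 and Six5 had it in all 5 lists. In wild-type both peaks lay upstream of the annotated gene, outside its body, with summits 2805 and 3849 bp from the nearest start. Lhx3 had no count in any RNA-seq library. Otx2 had it in Pcgf2/4-/- (over 32 bp only), Irx2 in Pcgf3/5-/-, Nkx1-2 in Pcgf1-/- and Pcgf3/5-/-, and Six4 in Pcgf2/4-/- and Pcgf6-/-. USF1 peaks lay at 5 members in wild-type (17.0% of genes) and a WDR5 peak at 1 (9.49%).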
